A study of Mus musculus with 6 samples.

Results

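Activating transcription factor 4 (ATF4) and 9 genes around it were followed, probe by probe, in haematopoietic stem cells that had or lacked Matn4, the gene of the matrix protein matrilin-4. The genes were taken by name, as every probe of the array whose gene symbol was Atf4, Ddit3, Trib3, Nupr1, Chac1, Asns, Phgdh, Psat1, Shmt2 or Mthfd2. This gave 18 of 46237 probes and at least 1 probe for each of the 10 genes. The set was selected on array values, the genotype differences of some of these genes in the same 6 arrays being known, so the levels and differences of its members are given as a description and not as tests.

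The 6 one-colour bead arrays held 3 samples of wt cells and 3 of Matn4-/- cells. Marrow of wt donors (CD45.1.2) and of Matn4-/- donors (CD45.2) had been mixed in equal parts and given to irradiated CD45.1 recipients (2 doses of 500 rad). After 4 weeks LSK CD150+ CD48- cells of each donor type were sorted. All arrays are labelled as female C57/BL6 mice of 12 weeks. Both genotypes therefore shared the irradiated host and the competition with the other donor's cells, and they differed in the CD45 allele as well as in Matn4. The labels name no separate recipients behind the replicates, so the spread between arrays may be partly technical. In such bulk samples, fewer cells that express a gene and less RNA per cell cannot be told apart.

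ATF4 is the transcription factor of the integrated stress response. Kinases that sense missing amino acids, misfolded protein, missing haem or viral RNA phosphorylate the initiation factor eIF2, general translation slows, and the ATF4 message is translated more. ATF4 then pairs with other leucine zipper proteins on the promoters of genes for amino acid supply, among them asparagine and serine synthesis and mitochondrial folate metabolism, and of feedback and death regulators such as Trib3, Chac1 and Ddit3. In human haematopoietic stem cells this response is known to be active. Because ATF4 is controlled largely at translation, its mRNA and its activity can move apart.

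The promoters of the members were examined first, in RefSeq windows on GRCm38.p6 that run from 250 bases before to 50 bases after the annotated start site. The core of the C/EBP-ATF response element, to which ATF4 and its partners bind, was searched as TGATGNAA on both strands (TTNCATCA when it lies on the other strand). All 10 genes had a window, and Psat1 had another. The core was found in 4 of these 11 windows, those of Asns, Nupr1, Trib3 and Chac1, and in 3.97% of all 32851 windows of that length. A match is only a description of the letters. The ER stress response element, searched on both strands as CCAAT followed after 9 bases by CCACG, was in none of the 11 and in 0.119% of all windows.

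The sequences below are shown because they carry the core, and Mthfd2 is added because it had the largest difference between genotypes of the set and lacks the core in its window. Each runs 5′ to 3′ on the strand of the gene, from 250 bases before to 30 bases after the start site, with the core in capitals.
Asns (chr6:7693180-7693459, minus strand): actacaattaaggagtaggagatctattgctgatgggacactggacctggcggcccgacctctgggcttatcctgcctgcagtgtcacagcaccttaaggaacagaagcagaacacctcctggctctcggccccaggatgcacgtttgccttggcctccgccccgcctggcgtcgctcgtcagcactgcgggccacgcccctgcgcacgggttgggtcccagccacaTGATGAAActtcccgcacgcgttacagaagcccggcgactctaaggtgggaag
Nupr1 (chr7:126625441-126625720, minus strand): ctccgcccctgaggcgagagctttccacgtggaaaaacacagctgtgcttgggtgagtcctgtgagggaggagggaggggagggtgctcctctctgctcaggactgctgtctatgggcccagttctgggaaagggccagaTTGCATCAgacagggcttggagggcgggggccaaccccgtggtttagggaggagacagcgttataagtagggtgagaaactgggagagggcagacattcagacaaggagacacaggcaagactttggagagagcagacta
Trib3 (chr2:152344031-152344310, minus strand): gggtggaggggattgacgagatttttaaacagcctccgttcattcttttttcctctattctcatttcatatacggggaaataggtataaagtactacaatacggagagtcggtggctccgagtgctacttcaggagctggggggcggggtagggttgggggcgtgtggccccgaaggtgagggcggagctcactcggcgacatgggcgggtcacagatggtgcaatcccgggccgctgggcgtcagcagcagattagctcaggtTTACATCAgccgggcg
Chac1 (chr2:119350992-119351271, plus strand): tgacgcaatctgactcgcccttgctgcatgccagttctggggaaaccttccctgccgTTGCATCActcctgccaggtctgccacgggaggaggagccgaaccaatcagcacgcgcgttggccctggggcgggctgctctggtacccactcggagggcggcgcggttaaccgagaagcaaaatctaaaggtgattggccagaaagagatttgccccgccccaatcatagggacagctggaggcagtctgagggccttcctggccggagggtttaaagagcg
Mthfd2 (chr6:83317575-83317854, minus strand): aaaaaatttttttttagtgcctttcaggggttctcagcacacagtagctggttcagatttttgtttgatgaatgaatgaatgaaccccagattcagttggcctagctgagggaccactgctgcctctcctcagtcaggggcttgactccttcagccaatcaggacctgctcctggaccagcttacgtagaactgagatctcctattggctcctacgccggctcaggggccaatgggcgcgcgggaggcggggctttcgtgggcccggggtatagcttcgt

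The Asns core lay on the strand of the gene, 23 to 16 bases before the start site. In Nupr1 it lay on the other strand, 110 to 103 bases before, and in Chac1 193 to 186 bases before. In Trib3 it lay 15 to 22 bases after the start site. Nupr1 and Chac1 carried the same 8 letters.

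**Figure D1:**
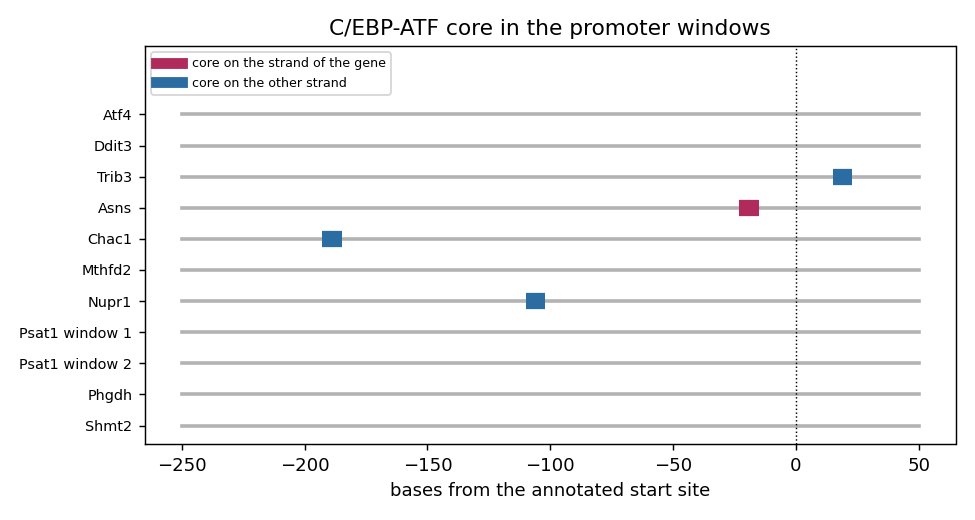
Position of the C/EBP-ATF core in the 11 promoter windows of the 10 genes. Each grey line is a window, the horizontal axis gives bases from the annotated start site, and coloured blocks mark the core by strand; 4 windows hold 1 core each.

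The deposited intensities are linear and still contain background, so a level of about 100 is an unlit probe and differences of dim probes are understated. The background was read from 7 probes of the Y-linked genes Eif2s3y, Kdm5d and Uty, which female cells lack. The brightest of them, a Uty probe, read 123.8 to 142 over the 6 arrays. Of the 18 probes of the set, 8 lay above it on all 6 arrays, 6 on some arrays and 4 on none. The 8 belong to Atf4 (both of its probes), Ddit3, Nupr1, Asns, Psat1, Shmt2 and Mthfd2. Probes were ranked by their mean log2 intensity, and the brighter 50% (23118) were kept. It kept 14 of the 18 probes and at least 1 probe of 9 of the 10 genes, Chac1 being the exception.

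Other features of the arrays touch these values. Of 8 stem cell markers with a probe, 6 lay above the brightest Y-linked probe on all arrays, among them Kit, Slamf1 and Procr, and Cd48, which the sort excludes, lay below it on all. Of the markers of other cells, 0 of 5 for T cells, 1 of 7 for macrophages (Lyz2), 2 of 4 for B cells (Cd79b and Vpreb1) and 3 of 5 for platelets lay above it on all arrays. The summed level of 10 mast cell and basophil markers was 1341 to 1730 in wt and 1429 to 2036 in Matn4-/- cells, with its higher values on the third replicate of each genotype. That of 7 erythroid markers was 1542 to 2538 in wt and 1851 to 2633 in Matn4-/- cells, and that of 9 neutrophil markers was 1543 to 2311 and 1700 to 2369. Over the 56 marker genes with a probe, all Matn4-/- arrays lay above all wt arrays in 6 and below them in 1. Over all kept probes the shares were 4.04% and 6.37%. The markers were taken whether or not their probe was kept and include dim ones, so the sets are not alike. No excess is read from the marker counts. Of the 6 markers, Hlf and Cma1 lay above the brightest Y-linked probe on 1 array each, and Mcpt4 and Adgre1 on 0. Fcer1a, a mast cell and basophil receptor subunit, read 127 to 139 in wt and 149.7 to 183 in Matn4-/- cells, and the erythroid gene Car1 read 137 to 199 and 204 to 257. The stem cell factor Meis1 read 471 to 498 in wt and 340.1 to 469.8 in Matn4-/- cells. Hlf, another stem cell marker, went the other way, with 97.7 to 99.9 in wt and 105.5 to 129.3 in Matn4-/- cells. The other mast cell, basophil and erythroid markers above the brightest Y-linked probe on all 6 arrays, Mcpt8, Hdc, Hbb-b1 and Hba-a1, overlapped between genotypes. The part of such cells in the levels below was not tested. Matn4-/- replicate 3 had a mean Spearman correlation of 0.745 with the other arrays, against 0.852 to 0.866 for the rest. Over the dimmer probes that were not kept it was 0.147, against 0.472 to 0.487. The brightest Y-linked probe was also lowest on this array (123.8), so a dim probe passes that level there more easily. Its readings of dim probes are therefore the least certain. The brightest Matn4 probe overlapped between genotypes, with 158 to 378 in wt and 168 to 331 in Matn4-/- cells, and since its position relative to the deletion is unknown here it does not check the labels.

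**Figure D2:**
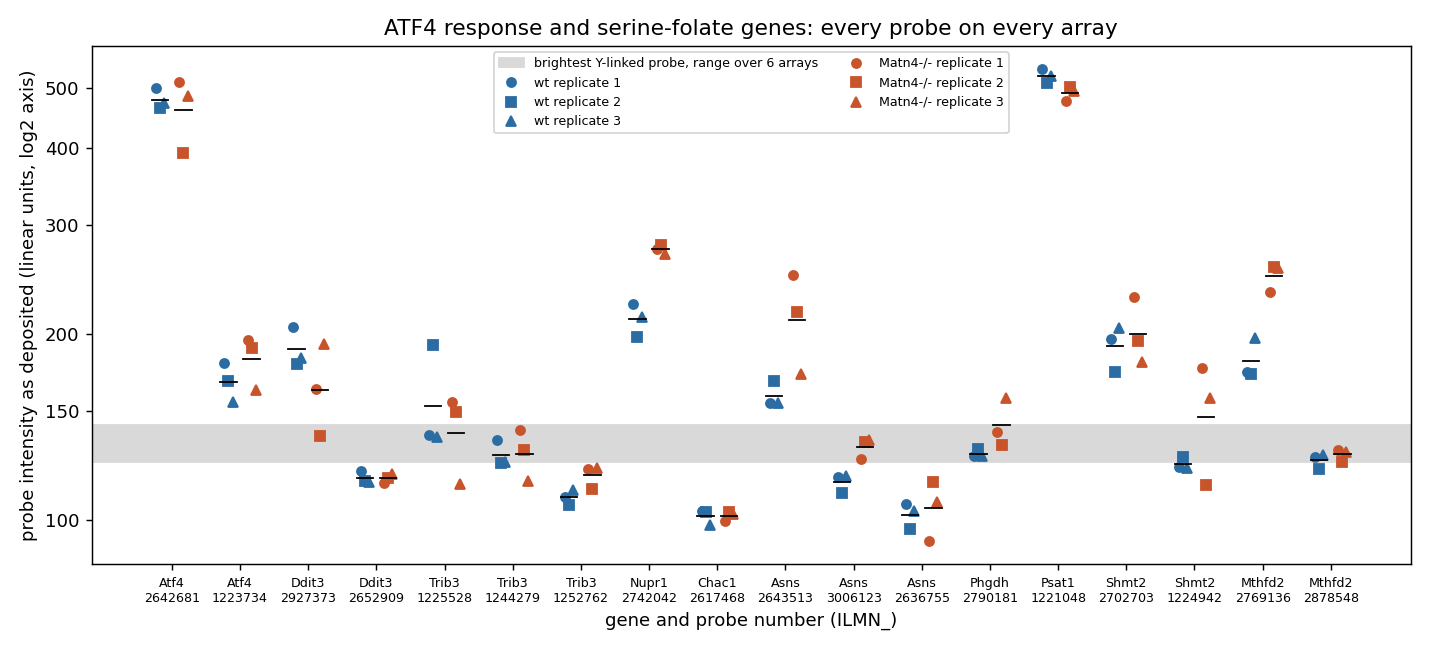
Intensity of all 18 probes on the 6 arrays, on a log2 axis; blue symbols are wt, orange symbols Matn4-/-, symbol shapes are the replicates and black bars the geometric means of 3 arrays. The grey band spans the brightest Y-linked probe over the arrays (123.8 to 142.2). The brighter Mthfd2 probe, Nupr1 and the brightest Asns probe are higher on each Matn4-/- array than on any wt array, and Psat1 is slightly lower.

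In outline, Mthfd2, Nupr1 and Asns read higher in Matn4-/- cells on their brightest probe, Phgdh less so and near background. The brightest probes of the regulators Atf4, Ddit3 and Trib3 had negative differences with overlapping genotypes, while a second lit Atf4 probe had a positive one. Psat1 was slightly lower. Of the 14 kept probes, 10 had a positive and 4 a negative difference (Matn4-/- minus wt), with a median of 0.10 on the log2 scale where all kept probes had a median of -0.01 and 46.1% were positive. None of the 14 passed limma at an adjusted p under 0.05 over all kept probes, a level that 0.0476% of kept probes passed, and 4 had an unadjusted p under 0.05, as did 5.45% of kept probes. All 4 were higher in Matn4-/- cells, where 1.68% of kept probes were higher and 3.76% lower at that level. The genotypes did not overlap in 6 of the 14 and in 10.4% of all kept probes. Of these 6, 5 were higher in Matn4-/- cells and 1 lower, and the shares of all kept probes were 4.04% and 6.37%. The second Asns probe, ILMN_3006123, is counted among the 10, the 4 and the 5, but it was kept only through its level in Matn4-/- cells. Since the genes were chosen with this contrast known, nothing is read from these counts.

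Among the regulators, Atf4 was lit on both probes. Its brighter probe, ILMN_2642681, read 500.1, 464 and 473 in wt and 511, 392 and 485 in Matn4-/- cells. The groups overlapped, Matn4-/- replicate 2 being the lowest and Matn4-/- replicate 1 the highest of the 6. The means were 479 ± 19.0 and 463 ± 62.8 (SD, n = 3 each), a log2 difference of -0.06 ± 0.11 (SE), which was 0.06 without Matn4-/- replicate 2. The other probe, ILMN_1223734, read 179.6, 167 and 155 in wt and 196, 189 and 162 in Matn4-/- cells. Its log2 difference was 0.12 ± 0.10, so both probes of the gene lay on opposite sides of 0, each near its own standard error or within it.

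Ddit3 encodes CHOP, a C/EBP-type factor that rises under endoplasmic reticulum stress and promotes cell death. Its kept probe, ILMN_2927373, read 205, 179 and 183 in wt and 163, 137 and 192 in Matn4-/- cells. The lower 2 Matn4-/- arrays lay under all wt arrays, and Matn4-/- replicate 3 lay within them. The log2 difference was -0.22 ± 0.12, which became -0.09 without Matn4-/- replicate 2 and -0.34 without Matn4-/- replicate 3. The other probe, ILMN_2652909, lay between 115 and 119.7 on all 6 arrays, below the brightest Y-linked probe, and carries no information on a difference.

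Trib3 encodes a pseudokinase that binds ATF4 and dampens it. Its brightest probe, ILMN_1225528, read 137, 192 and 136 in wt and 155, 149 and 114 in Matn4-/- cells. A single array, wt replicate 2, stood well above the others, and the log2 difference of -0.14 ± 0.16 became 0.02 without it. The residual SD of this probe, 0.26 on the log2 scale, was higher than that of 95.6% of kept probes. The next probe, ILMN_1244279, showed no peak on wt replicate 2 (124) and a log2 difference of 0.00 ± 0.09. The dimmest, ILMN_1252762, read 109, 106 and 111 in wt and 121, 112 and 121 in Matn4-/- cells, apart by 0.01 on the log2 scale but all below the brightest Y-linked probe.

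Nupr1 encodes a small nuclear protein that many cells make under nutrient and other stress. Its single probe, ILMN_2742042, read 223, 198 and 213 in wt and 275, 279 and 269 in Matn4-/- cells. The genotypes were apart by 0.27 on the log2 scale between the highest wt and the lowest Matn4-/- array, the widest such gap of the set. The means were 211 ± 12.8 and 274 ± 4.64 (SD, n = 3 each), and the log2 difference was 0.38 ± 0.07 (SE), or 1.30-fold with the background left in. With any 1 array left out it lay between 0.33 and 0.42. The promoter window of Nupr1 holds the C/EBP-ATF core, as do those of Asns, Trib3 and Chac1, and a link to the levels was not tested.

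Chac1 encodes an enzyme that breaks down glutathione and is among the more strongly induced genes of an ATF4 response. Its single probe, ILMN_2617468, read 103, 103 and 98.0 in wt and 99.4, 103 and 102 in Matn4-/- cells. These are levels of an unlit probe, so neither the presence of Chac1 message nor a difference was detectable.

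Asns, which makes asparagine from aspartate and glutamine, had 3 probes of very different brightness. The brightest, ILMN_2643513, read 154, 168 and 154 in wt and 249, 217 and 172 in Matn4-/- cells. All Matn4-/- arrays lay above all wt arrays, although Matn4-/- replicate 3 did so by only 0.03 on the log2 scale. The means were 159 ± 7.81 and 213 ± 38.8 (SD, n = 3 each), with a log2 difference of 0.41 ± 0.13 (SE). It was 0.28 without Matn4-/- replicate 1 and 0.55 without Matn4-/- replicate 3, so its size depended on the array. Its sign could not turn with 1 array left out, because the groups do not overlap.

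The next Asns probe, ILMN_3006123, read 117, 110.3 and 118 in wt and 125, 134 and 135 in Matn4-/- cells. Here Matn4-/- replicate 3 was the highest and not the lowest of its group, so both probes ordered the Matn4-/- arrays differently. The log2 difference was 0.19 ± 0.07. The probe lay above the brightest Y-linked probe on 1 of the 6 arrays, and no fold is given. Its mean log2 intensity was 6.85 in wt and 7.04 in Matn4-/- cells. The Ddit3 probe that was not kept stood at 6.87 in wt, so this Asns probe was kept only through Matn4-/- cells. The third probe, ILMN_2636755, was unlit at 92.5 to 115 over the 6 arrays.

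The serine synthesis enzymes are Phgdh, which takes the first step from a glycolytic intermediate, and Psat1, which takes the next. Their differences had opposite signs, but Phgdh lay near background, so this shows neither agreement nor disagreement. Psat1 was well lit, with 536, 509 and 523 in wt and 476, 502 and 494 in Matn4-/- cells on ILMN_1221048. The groups did not overlap, with all Matn4-/- arrays lower by a narrow margin. The means were 523 ± 13.4 and 491 ± 13.5 (SD, n = 3 each) and the log2 difference was -0.09 ± 0.07 (SE). The residual SD of 0.04 was among the smallest, with 3.34% of kept probes below it.

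Phgdh read 127, 130.2 and 127 in wt and 139, 132 and 157 in Matn4-/- cells on ILMN_2790181. No wt array and 1 of 3 Matn4-/- arrays, replicate 3, lay above the top Y-linked reading. Both group levels were therefore close to background, and no fold is given. As measured, the log2 difference was 0.15 ± 0.08, and 0.08 without Matn4-/- replicate 3, the array that stood apart.

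In mitochondria, Shmt2 splits serine into glycine and a one-carbon unit on folate. Its brighter probe, ILMN_2702703, read 196, 173 and 204 in wt and 229, 194 and 180.0 in Matn4-/- cells, and the groups overlapped. The log2 difference was 0.07 ± 0.11, and -0.03 without Matn4-/- replicate 1. The dimmer probe, ILMN_1224942, read 122, 126 and 121 in wt and 176, 114 and 157 in Matn4-/- cells. Its wt arrays were tightly grouped at background, while 2 of the 3 Matn4-/- arrays were lit. Matn4-/- replicate 2 was unlit and the lowest of all arrays, so the genotypes overlapped and no fold is given. The measured log2 difference of 0.25 ± 0.14 was 0.12 without Matn4-/- replicate 1 and 0.43 without Matn4-/- replicate 2.

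Mthfd2 oxidises that one-carbon unit in the next step, and it is a gene of proliferating and embryonic cells that is low in most adult tissue. Its brighter probe, ILMN_2769136, read 173, 172 and 197 in wt and 233, 257 and 255 in Matn4-/- cells. The genotypes did not overlap and were apart by 0.24 on the log2 scale. The means were 181 ± 14.0 and 248 ± 13.0 (SD, n = 3 each), with a log2 difference of 0.46 ± 0.08 (SE), or 1.37-fold with the background left in. It lay between 0.43 and 0.52 with any 1 array left out, and 61 of the 23118 kept probes had a larger positive difference.

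The other Mthfd2 probe did not show this. ILMN_2878548 read 126, 121 and 127 in wt and 129.9, 124 and 129 in Matn4-/- cells, a log2 difference of 0.03 ± 0.07, and lay above the brightest Y-linked probe on 1 of 6 arrays. A probe at that level is close to background on either genotype, so it neither repeats nor contradicts the brighter one. Over the set, 5 genes had more than 1 kept probe. By sign alone the kept probes of Asns, Shmt2 and Mthfd2 had the same direction, and those of Atf4 and Trib3 did not. Only Atf4 had more than 1 probe above the brightest Y-linked probe on all 6 arrays, so in the other 4 genes the sign of the dimmer probe shows neither agreement nor disagreement.

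**Figure D3:**
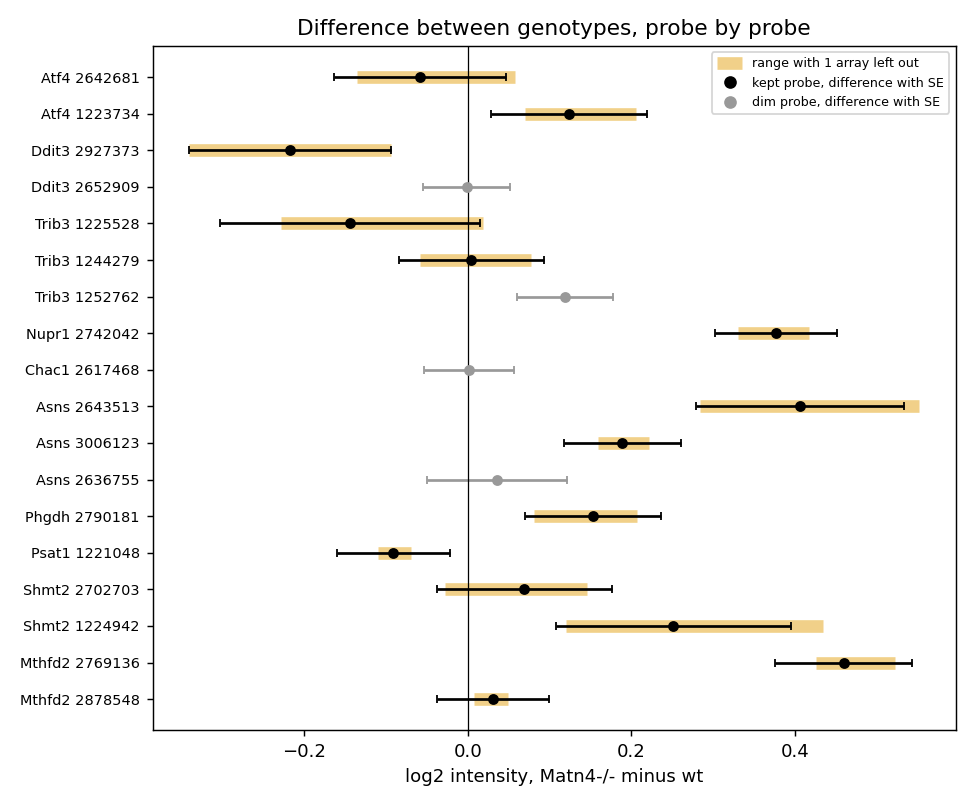
Difference in log2 intensity (Matn4-/- minus wt) for each of the 18 probes; points are differences with their standard error, black for kept and grey for dim probes, and yellow bars span the values with 1 array left out. The bars of Nupr1, Phgdh, the kept Asns and Mthfd2 probes and the dimmer Atf4 and Shmt2 probes stay above 0. Those of Ddit3 and Psat1 stay below it. Those of both Trib3 kept probes and of the brighter Atf4 and Shmt2 probes cross it.

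Background correction changes the size of these differences. When the median Y-linked probe of each array was subtracted and 50 added back, the log2 differences were 0.65 for Mthfd2 (ILMN_2769136), 0.51 for Nupr1 and 0.61 for the brightest Asns probe. They were -0.06 and 0.20 for the Atf4 probes in order of brightness, -0.33 for Ddit3, -0.23 for the brightest Trib3 probe, -0.10 for Psat1 and 0.11 for the brighter Shmt2 probe. No such value is given for Phgdh and the dimmer probes of Asns, Shmt2 and Mthfd2, whose wt arrays all lay at background. No member passed the threshold on these values either.

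Other genes of the pathway were followed through 6 lists with 91 genes in all, of which 83 had a probe and 67 a kept one. None passed limma in either direction, against 0.00433% of kept probes called higher and 0.0433% called lower. At an unadjusted p under 0.05 there were 3 of 67, Eif2b5, Mtfmt and Nars, all lower, a share near the 5.45% of kept probes in either direction and the 3.76% that were lower. Of the 67 genes 30 had a positive and 37 a negative difference, with a median of -0.02 beside -0.01 for all kept probes. In none of them did all Matn4-/- arrays lie above all wt arrays, which 4.04% of kept probes did, and in 4 they lay below, near the 6.37% of kept probes.

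The list upstream of ATF4, made of eIF2 kinases, subunits of the exchange factor eIF2B and the eIF2 phosphatase subunits Ppp1r15a and Ppp1r15b, had negative differences in 9 and positive ones in 2 of 11 kept genes, with a median of -0.06. Both phosphatase subunits, which undo the phosphorylation, were among the 9, at -0.02 and -0.09. Ppp1r15a lay above the brightest Y-linked probe on 2 of 6 arrays, and the other kept probe of Ppp1r15b stood at -0.0004. The kinase genes Eif2ak3 and Eif2ak4 lay above that probe on 0 and 1 of 6 arrays, so the signs in this list include probes at background. Eif2b5, the catalytic subunit of eIF2B, which phosphorylated eIF2 blocks, had the largest difference. It read 228, 309 and 229 in wt and 199, 200.4 and 177 in Matn4-/- cells, so all Matn4-/- arrays lay lower and wt replicate 2 was far above the rest. Its log2 difference was -0.40 ± 0.12 (SE, limma adjusted p = 0.743), and its other kept probes stood at -0.32 and -0.20. Eif2ak2, the kinase PKR that senses double-stranded RNA, had the most positive difference of the list (0.05 ± 0.08).

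Leucine zipper partners of ATF4 split into 2 positive and 3 negative of 5 kept genes. Cebpg, a dimer partner of ATF4, stood at -0.23 ± 0.16 with its other kept probe at 0.07, and Nfe2l2, the regulator of antioxidant genes, at 0.11 ± 0.11. Atf3 and Jdp2 had only dim probes. Further ATF4 targets split into 8 and 6 of 14, within a range of -0.08 for Sesn2, an inhibitor of mTORC1 signalling, to 0.14 for Gpt2, a mitochondrial alanine transaminase. Each of these 2 genes lay above the brightest Y-linked probe on 2 of 6 arrays. Amino acid transporters split evenly, 4 and 4 of 8, between -0.12 for Slc43a1 and 0.15 for Slc1a4, which carry large neutral amino acids and alanine, serine and cysteine.

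The remaining enzymes of serine, glycine and folate metabolism were higher in 5 and lower in 7 of 12 by sign. Mtfmt, which formylates the mitochondrial initiator tRNA with folate-bound formate, read 149, 169 and 164 in wt and 143, 137 and 128 in Matn4-/- cells, without overlap. Its log2 difference was -0.24 ± 0.08 (limma adjusted p = 0.79), and its other kept probes stood at -0.28 and -0.02. Tyms, the thymidylate synthase that uses cytosolic folate, had the most positive difference (0.08 ± 0.10). The cytosolic tRNA synthetases, many of them ATF4 targets, split into 9 and 8 of 17. Nars, which charges asparagine, the product of Asns, read 346, 350.0 and 329.7 in wt and 317, 272 and 286 in Matn4-/- cells. Its log2 difference of -0.23 ± 0.08 (limma adjusted p = 0.806) had the opposite sign to that of Asns. Lars, which charges leucine, stood at 0.14 ± 0.10, and its other kept probe at -0.04.

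**Figure D4:**
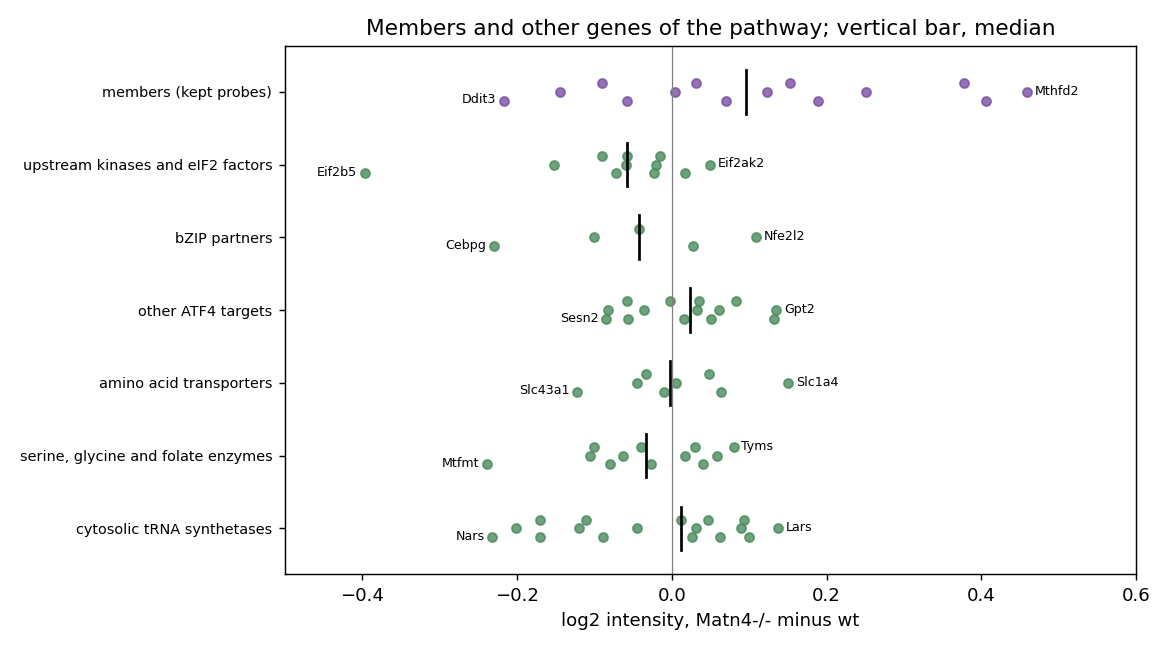
Differences in log2 intensity (Matn4-/- minus wt) of the 14 kept member probes (purple) and of the brightest kept probe of each of 67 other pathway genes (green), by list. Vertical black bars are medians and the lowest and highest entry of each row is named. The 6 lists have medians between -0.06 and 0.02.

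Profiles over the 6 arrays were compared by Pearson correlation with the brightest probe of Atf4 and of Mthfd2. Most like Mthfd2 were probes of Prmt1, a protein arginine methyltransferase (r = 0.995, log2 difference 0.24), Cttnbp2nl (r = 0.98, above the brightest Y-linked probe on 1 array) and the histone gene H2ac12 (r = 0.977, log2 difference 0.41). Most like Atf4 were Kmt2d, a histone methyltransferase (r = 0.985), the transcription factor gene Klf3 (r = 0.983) and Ceacam1 (r = 0.983). The Kmt2d probe lay above the brightest Y-linked probe on 0 of 6 arrays, that of Ceacam1 on 2 and that of Klf3 on 4, so these profiles are partly or wholly those of background. Of the 23118 kept probes, 31 exceeded 0.95 with Mthfd2 and 19 with Atf4. The probes share the same 6 arrays, and these values are a description only.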

How the data were processed

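Per the labels' protocols, each sample's 2.5 ng of RNA went through isothermal amplification and biotin labelling before hybridisation to one-colour Illumina arrays. The authors deposited linear intensities, 1 for each probe on each array. How they were normalized, and whether background was removed, is not stated in the labels. A further deposited table with 12 value columns was not used, since its column names match no label. Gene symbols came from the platform table (35784 of 46237 probes with 1, 10453 with none). Updating symbols through Entrez identifiers and accessions of the GRCm38.p6 gene table added no probe to the 18.

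Log2 intensities of the 23118 kept probes entered a linear model with genotype as its only term (R 4.3.3, limma 3.58.1, with moderated variances) and adjusted by Benjamini-Hochberg, threshold 0.05. Differences of dim probes came from a fit to all probes. The fit was tested on simulated data. The members, lists and tests were chosen with earlier results of these data known. Named pathway genes are those past the threshold or, with none, the extreme of each sign in a list. Mtfmt, Nars and Eif2b5 were also named for their unadjusted p. In the background-subtracted alternative values under 16 were set to 16. Alternatives changed the filter, scaling, background, spread model, probes per gene, array weights, replicate block and arrays. Tables were joined in pandas 2.3.3 and plots drawn in matplotlib 3.10.9. The number of arrays limits the precision.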

Additional observations from a re-analysis of the deposited data

How the results depend on the processing

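None of the member probes and none of the 67 other pathway genes passed the threshold under any of the 15 alternatives. Over all kept probes 11 passed, 7 with 1 probe a gene and 3 to 9 with 1 array left out, where fewer features or arrays enter the fit. The counts were 4, 5 and 5 without wt replicates 1 to 3, 3 without Matn4-/- replicate 1 and 7 without Matn4-/- replicate 3. With the replicate block 13 passed. The deviations of same-numbered arrays from their group means were only weakly correlated (0.0096, 0.0444 and 0.0496). The summed mast cell, erythroid and neutrophil markers were nevertheless highest on replicate 3 of both genotypes. The labels do not say whether the numbers mark pairs, and the main fit does not pair them. Genes whose kept probes share a sign, dim ones included, numbered 3 of 5 and lay between 3 and 5 with 1 array left out, 5 without Matn4-/- replicate 2. Of 200 member differences under the alternatives, 6 moved by more than the replicate SD, all 6 with background subtracted. Alternatives that changed only the filter, spread model, probes per gene or replicate block return the same difference by construction. Their share of the 200 could not move. The kept probes of Asns, Mthfd2, Nupr1, Phgdh, Ddit3 and Psat1 kept their sign in each of the 13 to 15 alternatives that fitted them. Many of these alternatives could not turn a sign. Besides those that return the same difference, leaving out 1 array cannot turn it where the genotypes do not overlap. Among these probes, only that of Ddit3 and the dimmer one of Mthfd2 overlapped. The kept signs are therefore a description only. Signal over background limits Chac1, Phgdh and the dim probes of other genes.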
